A study of Mus musculus with 16 samples.

Results

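Genes that carry out pyroptosis and necroptosis, the lytic forms of programmed cell death, were examined in the spinal cord of mice that express human profilin 1 (PFN1). The 10 genes were taken by symbol from the table of gene expression: *Pycard*, *Casp1*, *Casp4*, *Gsdmd*, *Casp8*, *Fadd*, *Ripk1*, *Zbp1*, *Ripk3* and *Mlkl*. All 10 were among the 18167 genes of the table, so none was lost to the authors' removal of unexpressed genes. Messenger RNA from whole spinal cord was sequenced in 16 mice, 1 library per mouse, to follow the tissue of a mouse model of amyotrophic lateral sclerosis before symptoms and at end stage.

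Mutant mice carried human PFN1 with the G118V change (line Tg(Prnp-PFN1\*G118V)838Kiaei), and control mice carried human PFN1 without it (line Tg(Prnp-PFN1)850Kiaei), both on C57BL/6N. Both transgenes were driven by the mouse prion protein promoter, so every mouse carried a human PFN1 transgene and no mouse without a transgene was analysed here. Each genotype was a single line, and the G118V change cannot be told apart from other differences between the lines. The groups were wild-type young (WY, 3 mice) and mutant young (MY, 3 mice), all 50 days old, wild-type old (WO, 5 mice of 190 to 294 days) and mutant old (MO, 5 mice of 175 to 245 days). The MO mice were at end stage, defined by loss of the righting reflex. As labelled, every WY and MY library belonged to batch 1, while the WO and MO groups were split, 3 mice per group to batch 1 and 2 per group to batch 2. Both WO mice of batch 2 were 294 days old, older than every MO mouse.

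In pyroptosis, sensor proteins gather with the adaptor ASC, the product of *Pycard*, into inflammasomes that activate caspase-1. Caspase-1 matures interleukin-1β and interleukin-18 and, like caspase-11 (the product of mouse *Casp4*), cleaves gasdermin D, whose freed end forms pores in the plasma membrane. In necroptosis, RIPK1 or ZBP1 engages RIPK3, which phosphorylates MLKL so that it breaks the membrane, while FADD and caspase-8 hold that route back. In the central nervous system, microglia are the best known source of inflammasome activity. All of these proteins act after cleavage, assembly or phosphorylation, which transcript levels do not measure.

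Values are log2(1 + FPKM), where FPKM is the fragment count scaled to transcript length and library size, as adjusted by the authors for batch. In WO mice, the neuronal marker *Snap25* averaged 10.63, the oligodendrocyte marker *Mog* 7.31, the astrocyte marker *Gfap* 9.50 and the motor neuron marker *Chat* 3.95, so the cells that define spinal cord were represented. All mice were labelled male. MO5 went against that label, with a value of 3.21 for *Xist*, the RNA of the inactive X chromosome, which was at most 0.37 in the other 15 mice. The Y-linked *Ddx3y* was 1.95 in MO5 and at least 4.06 in those 15 mice, and *Uty*, *Kdm5d* and *Eif2s3y* were also lower in MO5 than in every other mouse. The log2 fold changes of the 10 genes in MY vs. MO and WO vs. MO are therefore given with and without the library labelled MO5. All other values include that library unless stated.

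A gene was differentially expressed when limma gave a false discovery rate (FDR) of at most 0.05 over all 18167 genes and the absolute fold change was at least 1.5, which is 0.585 on the log2 scale. Of the 10 genes, 6 were up-regulated in MO relative to MY, where 4.11% of all genes were up-regulated, and the median log2 fold change was 0.75 for the 10 genes and 0.00 for all genes. In WO vs. MO, 6 of 10 were also up-regulated, against 4.08% of all genes, with medians of 0.76 and 0.00. In each comparison the 6 genes were *Pycard*, *Casp1*, *Casp4*, *Gsdmd*, *Casp8* and *Zbp1*, and no gene of the 10 was down-regulated. MY vs. MO and WO vs. MO share the 5 MO mice, so they are not independent of each other. Without the minimum fold, 8 of 10 had an FDR of at most 0.05 and a higher level in MO in each comparison. Of all genes, 13.1% did so in MY vs. MO and 15.0% in WO vs. MO. The added *Ripk1* and *Ripk3* did not pass the FDR under several alternatives given with them, and *Ripk3* was the less stable. In 6 of 10 genes all 5 MO mice lay above all 11 other mice, a pattern found in 7.58% of all genes. Without MO5, the same 6 genes were up-regulated in both comparisons.

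**Figure D1:**
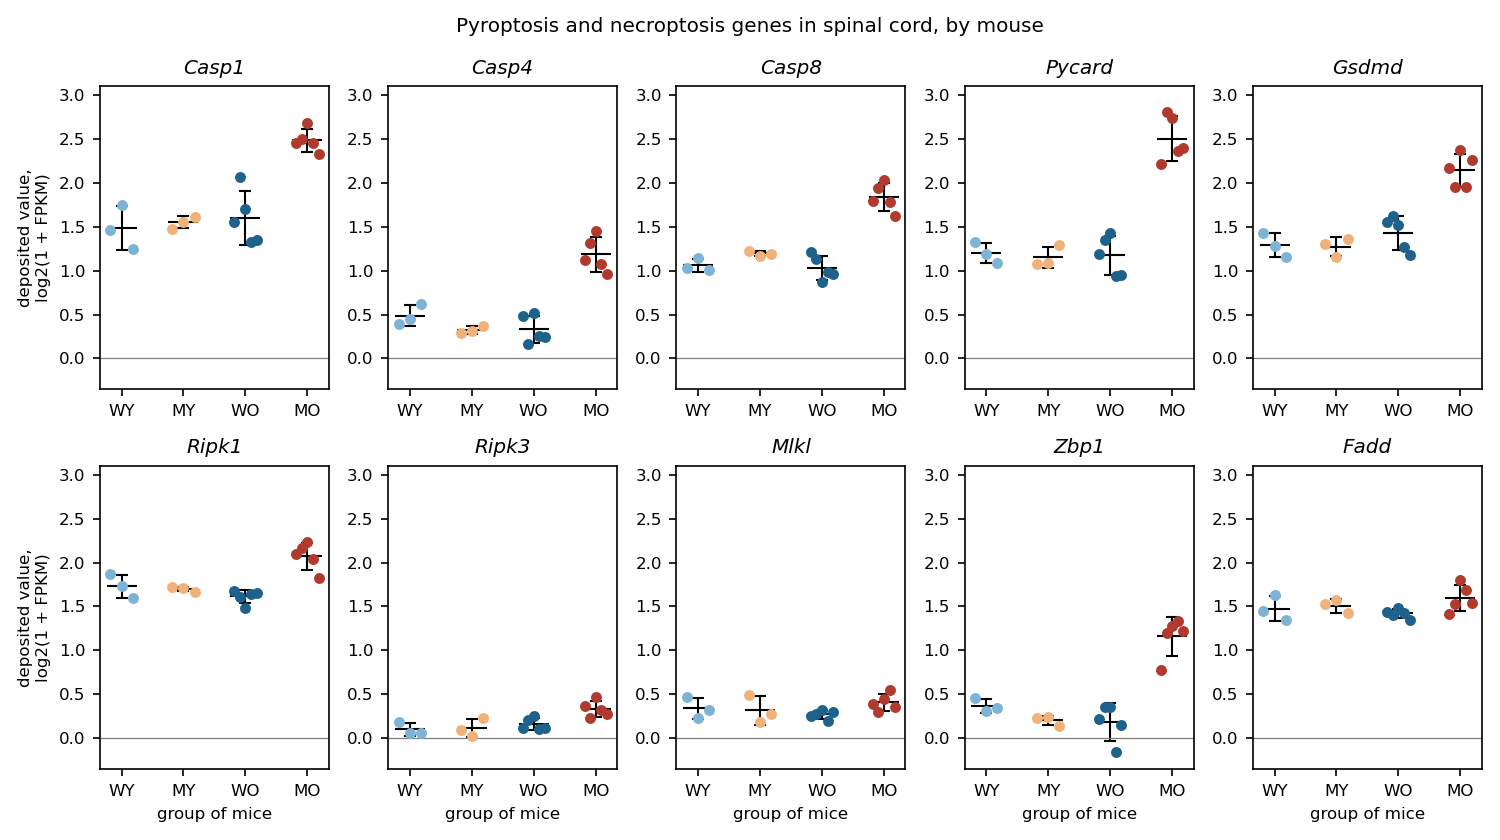
Each point is the log2(1 + FPKM) value of 1 mouse, by group (WY and MY, 3 mice each, WO and MO, 5 mice each), and bars show the mean and SD of each group. In *Casp1*, *Casp4*, *Casp8*, *Pycard*, *Gsdmd* and *Zbp1* every MO mouse lies above all 11 other mice, whereas the groups overlap in *Ripk1*, *Ripk3*, *Mlkl* and *Fadd*.

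*Pycard*, the inflammasome adaptor, had the largest fold change of the 10 genes in both comparisons on the log2(1 + FPKM) scale. Its log2(1 + FPKM) value was 1.32, 1.19 and 1.09 in WY1 to WY3, 1.08, 1.09 and 1.29 in MY1 to MY3, and 1.19, 1.35, 1.43, 0.94 and 0.95 in WO1 to WO5. In MO1 to MO5 it was 2.21, 2.81, 2.74, 2.36 and 2.39. The lowest MO mouse, MO1, was above the highest other mouse, WO3, and the groups WY, MY and WO overlapped. *Pycard* was up-regulated in WO vs. MO (log2 fold change 1.33 ± 0.14, SE; limma FDR 7.18e-05) and in MY vs. MO (1.35 ± 0.14; limma FDR 0.000485). Its log2 fold change ranked at 205 from the top among 18167 genes in WO vs. MO and at 191 in MY vs. MO. Without MO5 the log2 fold changes were 1.36 and 1.38. With a pseudocount of 0.1 in place of 1, *Pycard* (1.83 in WO vs. MO) came after *Zbp1* (2.46) and *Casp4* (1.99).

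*Casp1*, the protease of the canonical inflammasome, varied more than *Pycard* among WY and WO mice. It was 1.46, 1.74 and 1.24 in WY1 to WY3, 1.48, 1.56 and 1.61 in MY1 to MY3, and 1.56, 2.07, 1.70, 1.33 and 1.35 in WO1 to WO5. The values of MO1 to MO5 were 2.45, 2.50, 2.68, 2.45 and 2.32. WO2 came closest to the MO mice but stayed below MO5, the lowest of them. *Casp1* was up-regulated in WO vs. MO (log2 fold change 0.88 ± 0.13, SE; limma FDR 0.000699) and in MY vs. MO (0.93 ± 0.076; limma FDR 0.00027), and without MO5 these log2 fold changes were 0.92 and 0.97.

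*Casp4* encodes the caspase that senses bacterial lipopolysaccharide inside the cell, in the non-canonical pathway. Its values were low outside the MO group, with 0.40, 0.45 and 0.63 in WY1 to WY3, 0.30, 0.31 and 0.37 in MY1 to MY3, and 0.48, 0.16, 0.51, 0.25 and 0.25 in WO1 to WO5. Values of 1.13, 1.31, 1.46, 1.07 and 0.96 were found in MO1 to MO5. No other mouse reached the level of MO5, the lowest MO mouse, and the highest of them was WY3. The log2 fold change was 0.85 ± 0.10 (SE; limma FDR 0.000174) in WO vs. MO and 0.86 ± 0.10 (limma FDR 0.000911) in MY vs. MO, and without MO5 it was 0.91 and 0.92.

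*Gsdmd*, the pore former itself, was 1.43, 1.28 and 1.16 in WY1 to WY3, 1.30, 1.15 and 1.36 in MY1 to MY3, and 1.55, 1.63, 1.52, 1.27 and 1.17 in WO1 to WO5. It was 2.16, 1.96, 2.38, 1.95 and 2.25 in MO1 to MO5. The 3 WO mice of batch 1 were higher than both WO mice of batch 2, and all of them were below the MO mice. *Gsdmd* was up-regulated in WO vs. MO (log2 fold change 0.71 ± 0.11, SE; limma FDR 0.000805) and in MY vs. MO (0.87 ± 0.11; limma FDR 0.000919), and without MO5 these were 0.68 and 0.84. Without WO4 and WO5, which were the oldest mice, the log2 fold change in WO vs. MO was 0.57 (limma FDR 0.00647), below the minimum fold.

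*Casp8*, which starts extrinsic apoptosis and restrains necroptosis, had values of 1.03, 1.14 and 1.01 in WY1 to WY3, 1.23, 1.17 and 1.19 in MY1 to MY3, and 1.21, 1.13, 0.87, 0.98 and 0.96 in WO1 to WO5. In MO1 to MO5 the values were 1.79, 1.94, 2.03, 1.78 and 1.62. All MO mice stood above the others, and all 3 MY mice were above all 3 WY mice. *Casp8* was up-regulated in WO vs. MO (log2 fold change 0.80 ± 0.086, SE; limma FDR 9.17e-05) and in MY vs. MO (0.64 ± 0.086; limma FDR 0.00144), with 0.86 and 0.69 without MO5. After quantile normalization the value in MY vs. MO was 0.51, under the minimum fold.

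*Fadd*, the adaptor that recruits caspase-8, was not differentially expressed. Its values ran from 1.42 to 1.80 in MO mice, from 1.35 to 1.49 in WO mice, from 1.42 to 1.58 in MY mice and from 1.35 to 1.63 in WY mice, and these ranges overlapped. The log2 fold change was 0.17 in WO vs. MO (95% confidence interval 0.03 to 0.32; limma FDR 0.0791) and 0.08 in MY vs. MO (interval -0.11 to 0.28; limma FDR 0.54). Without MO5 these were 0.19 (limma FDR 0.0908) and 0.10 (limma FDR 0.509).

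*Ripk1*, the kinase and scaffold downstream of death receptors, was 1.87, 1.73 and 1.60 in WY1 to WY3, 1.72, 1.71 and 1.67 in MY1 to MY3, and 1.68, 1.61, 1.49, 1.64 and 1.66 in WO1 to WO5. It was 2.10, 2.16, 2.24, 2.04 and 1.83 in MO1 to MO5. Only MO5 fell within the range of the other groups, below WY1. *Ripk1* passed the FDR but not the minimum fold in WO vs. MO (log2 fold change 0.46 ± 0.072, SE; limma FDR 0.000974) and in MY vs. MO (0.37 ± 0.085; limma FDR 0.0136), and it did not reach the minimum fold without MO5 either (0.52 and 0.43). It did not pass the FDR in WO vs. MO within batch 2, where fewer mice were tested (log2 fold change 0.28; limma FDR 0.121), or in MY vs. MO without MY3 (0.36; limma FDR 0.0591).

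Among the genes of the necroptosis arm, *Zbp1*, an interferon-inducible sensor of nucleic acids in the Z conformation, differed most. It was 0.46, 0.31 and 0.35 in WY1 to WY3, 0.23, 0.24 and 0.14 in MY1 to MY3, and 0.22, 0.35, 0.36, -0.16 and 0.15 in WO1 to WO5. In MO1 to MO5 it was 0.78, 1.202, 1.28, 1.33 and 1.22. MO1 was far below the other MO mice and still above all 11 other mice, and the negative value of WO4 arose in the batch adjustment, since FPKM itself cannot be negative. *Zbp1* was up-regulated in WO vs. MO (log2 fold change 0.98 ± 0.12, SE; limma FDR 0.000239) and in MY vs. MO (0.96 ± 0.12; limma FDR 0.000919), with 0.96 and 0.94 without MO5.

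*Ripk3*, the kinase that commits cells to necroptosis, was near 0 outside the MO group, at 0.18, 0.06 and 0.06 in WY1 to WY3, 0.09, 0.03 and 0.23 in MY1 to MY3, and 0.11, 0.21, 0.25, 0.11 and 0.12 in WO1 to WO5. In MO1 to MO5 it was 0.37, 0.24, 0.47, 0.33 and 0.28. MO2 lay below WO3, and the other 4 MO mice lay above all 11 other mice. The FDR was passed without the minimum fold in WO vs. MO (log2 fold change 0.18 ± 0.050, SE; limma FDR 0.0246) and in MY vs. MO (0.22 ± 0.066; limma FDR 0.0423). With the fewer mice of a single batch, the log2 fold change in WO vs. MO was similar and the FDR was not passed, in batch 1 (0.17; limma FDR 0.208) and in batch 2 (0.19; limma FDR 0.127). Leaving out 1 mouse raised the limma FDR to as much as 0.0622 in WO vs. MO and 0.162 in MY vs. MO. Quantile normalization gave a limma FDR of 0.0508 in WO vs. MO and 0.0807 in MY vs. MO. Without both oldest WO mice it was 0.157 in WO vs. MO. Without MO5 the log2 fold change was 0.19 in WO vs. MO (limma FDR 0.0305) and 0.23 in MY vs. MO (limma FDR 0.054). With a pseudocount of 0.1 in place of 1, *Ripk3* passed the minimum fold as well, at 0.74 in WO vs. MO and 1.01 in MY vs. MO.

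*Mlkl*, the pseudokinase that ruptures the membrane in necroptosis, was not differentially expressed. It was 0.39, 0.31, 0.44, 0.55 and 0.36 in MO1 to MO5, from 0.20 to 0.33 in WO mice, from 0.18 to 0.49 in MY mice and from 0.23 to 0.47 in WY mice. The MO range overlapped that of each other group, and MY1 was above 4 of the 5 MO mice. The log2 fold change was 0.14 in WO vs. MO (95% confidence interval 0.03 to 0.24; limma FDR 0.0591) and 0.09 in MY vs. MO (interval -0.09 to 0.27; limma FDR 0.462). Without MO5 these were 0.15 (limma FDR 0.066) and 0.10 (limma FDR 0.448).

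**Figure D2:**
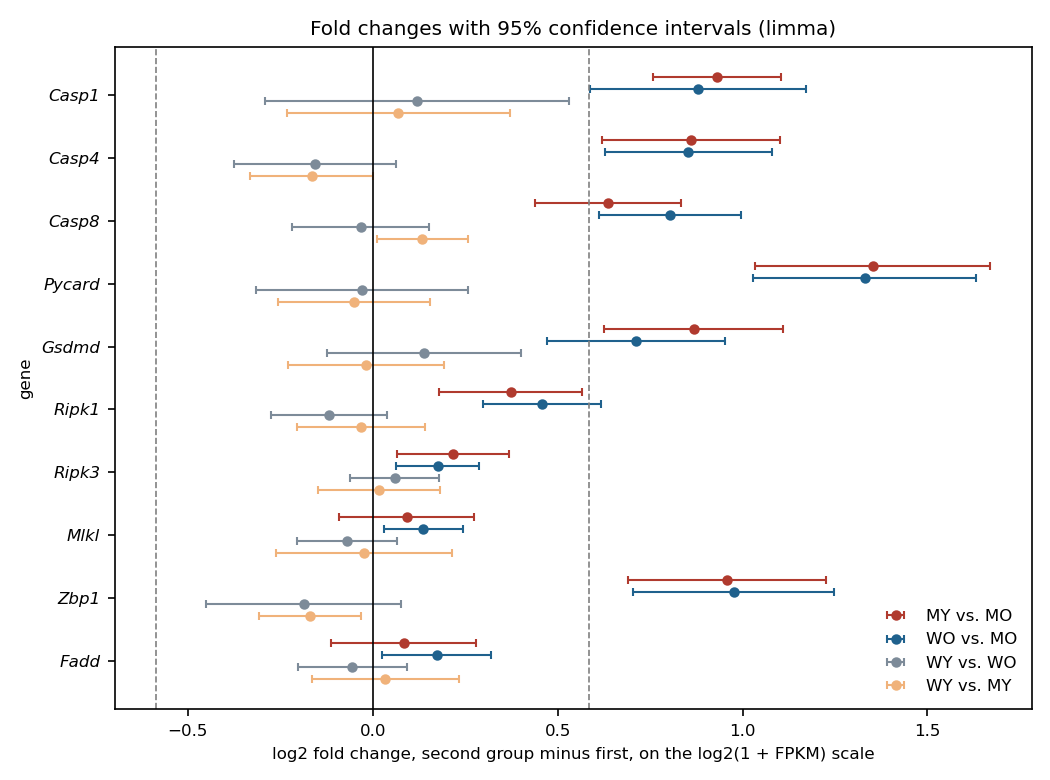
Points are log2 fold changes (second group minus first) of each gene in 4 comparisons, lines are 95% confidence intervals from limma, and dashed lines mark the minimum fold change of 1.5. *Pycard* lies farthest to the right in MY vs. MO and WO vs. MO, and in WY vs. WO and WY vs. MY all 10 genes lie within the dashed lines.

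Fold changes on the log2(1 + FPKM) scale understate the change of genes expressed at low levels, so values were also turned back to FPKM. Mean FPKM of *Zbp1* was 0.167 ± 0.12 in WO mice, 0.152 ± 0.043 in MY mice and 1.26 ± 0.316 (SD) in MO mice, a ratio of 7.52 for MO to WO, where its fold change on the log2(1 + FPKM) scale was 1.97. For *Casp4* the FPKM was 0.264 ± 0.139 in WO mice and 1.29 ± 0.319 in MO mice, a ratio of 4.88. The ratios of mean FPKM for MO to WO were 3.72 for *Pycard*, 2.46 for *Casp8*, 2.20 for *Casp1* and 2.01 for *Gsdmd*. That of *Ripk3* was 2.22, from an FPKM of 0.119 in WO mice to 0.265 in MO mice. No test was made on this scale.

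Because FPKM is a level per length, genes can be ordered by it. In MO mice *Pycard* (mean FPKM 4.74 ± 1.04, SD) and *Casp1* (4.60 ± 0.514) were highest, followed by *Gsdmd* (3.43 ± 0.575) and *Ripk1* (3.22 ± 0.44). *Casp8* (2.58 ± 0.393) and *Fadd* (2.03 ± 0.316) came next, then *Casp4* (1.29 ± 0.319) and *Zbp1* (1.26 ± 0.316), and *Mlkl* (0.329 ± 0.0869) and *Ripk3* (0.265 ± 0.0791) were lowest. Within each of these pairs apart from *Casp8* and *Fadd* the means differed by less than the SD of either gene. In WO mice the order was led by *Casp1* (2.09 ± 0.688), *Ripk1* (2.06 ± 0.157), *Gsdmd* (1.71 ± 0.358) and *Fadd* (1.68 ± 0.0931), with *Pycard* (1.28 ± 0.354) after them. All 10 were below the median gene, whose mean over the 16 mice was 2.83 on the log2(1 + FPKM) scale. *Casp1*, the highest of the 10 over the 16 mice, averaged 1.84 on that scale and was above 36.2% of all genes, and *Ripk3*, the lowest, was above 11.3%.

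The 5 MO mice were not equally high. MO3, the oldest at 245 days, had the highest value of the 5 in 7 of the 10 genes and the lowest in 0. MO5, the youngest at 175 days, had the highest value in 0 genes and the lowest in 4, and MO1 was lowest in 3. The part of age in this order was not tested.

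Ageing in wild-type mice was addressed by WY vs. WO. None of the 10 genes was differentially expressed (limma), and the lowest FDR was 0.524. At an unadjusted p of 0.05, 0 of 10 passed, against 13.5% of all genes. By both thresholds 0 of 10 passed, against 0.253% of all genes in either direction. Log2 fold changes ran from -0.19 in *Zbp1* to 0.14 in *Gsdmd*, with confidence intervals from -0.45 to 0.08 and from -0.12 to 0.40. *Casp1* had the widest interval, from -0.29 to 0.53 around 0.12. All WY mice were of batch 1, and the 2 WO mice of batch 2 were also the oldest, so batch and age are tied in those mice. Within batch 1 the differences of mean log2 values ran from -0.14 in *Ripk1* to 0.29 in *Casp1*. There *Gsdmd* had 0.28, *Pycard* 0.12 and *Zbp1* -0.06.

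The presymptomatic comparison, WY vs. MY, asked whether the genes differed before disease. None of the 10 was differentially expressed (limma), the lowest FDR was 0.657, and 0.00550% of all genes were differentially expressed in either direction. At an unadjusted p of 0.05, 2 of 10 passed, in opposite directions, against 7.16% of all genes. *Casp8* was higher in all 3 MY mice than in all 3 WY mice (log2 fold change 0.13 ± 0.051, SE; limma FDR 0.676), and *Zbp1* was lower in all 3 MY mice than in all 3 WY mice (-0.17 ± 0.057; limma FDR 0.657). *Casp4* was likewise lower in all 3 MY mice (-0.16 ± 0.069; limma FDR 0.695). Such a separation of all MY from all WY mice, in either direction, was thus found in 3 of 10 genes and in 13.7% of all genes.

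Whether the age effect differed between genotypes was tested directly on all 16 mice as (MO - MY) - (WO - WY). The same 6 genes passed both thresholds with a larger increase in mutant mice, where 4.65% of all genes did, and without the minimum fold 7 of 10 passed, against 10.5% of all genes. The largest of these differences was in *Pycard* (1.38 ± 0.20, SE; limma FDR 0.000337), followed by *Zbp1* (1.15 ± 0.17; limma FDR 0.000477) and *Casp4* (1.02 ± 0.15; limma FDR 0.000377). *Casp1* (0.81; limma FDR 0.015), *Gsdmd* (0.73; limma FDR 0.00724) and *Casp8* (0.67; limma FDR 0.00194) differed less. *Ripk1* had a difference of 0.49 (limma FDR 0.00812), under the minimum fold, and those of *Ripk3*, *Mlkl* and *Fadd* were between 0.14 and 0.16 with FDRs of at least 0.224. With a pseudocount of 0.1, *Zbp1* (3.11) and *Casp4* (2.49) came before *Pycard* (1.91). Without MO5 the same 6 genes passed, and quantile normalization left *Casp8* at 0.56, below the minimum fold.

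Within batches the direction of the 6 genes in WO vs. MO was the same. In batch 1 (3 WO and 3 MO mice) the differences of mean log2 values were 1.26 for *Pycard*, 0.91 for *Casp4*, 0.85 for *Casp8*, 0.77 for *Zbp1*, 0.77 for *Casp1* and 0.60 for *Gsdmd*. In batch 2 (2 WO and 2 MO mice) they were 1.43 for *Pycard*, 1.28 for *Zbp1*, 1.05 for *Casp1*, 0.88 for *Gsdmd*, 0.77 for *Casp4* and 0.73 for *Casp8*. *Ripk1* differed by 0.57 in batch 1 and 0.28 in batch 2. In batch 1, the only batch with MY mice, MY vs. MO gave 1.43 for *Pycard*, 0.99 for *Casp1*, 0.97 for *Casp4*, 0.89 for *Gsdmd*, 0.88 for *Zbp1* and 0.73 for *Casp8*.

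Upstream of the adaptor, 12 of 13 listed inflammasome sensor genes were in the table, and 3 of 12 were up-regulated in both WO vs. MO and MY vs. MO, 0 down-regulated. For this list and those named below, 4.08% of all genes were up-regulated in WO vs. MO and 4.11% in MY vs. MO. Down-regulated were 94 and 143 of 18167 genes. A count of 0 in a short list therefore does not set it apart from all genes. *Naip2* and *Naip5*, whose products bind parts of bacterial secretion systems and flagellin and signal through NLRC4, had log2 fold changes of 0.96 and 0.77 in WO vs. MO and 0.93 and 0.79 in MY vs. MO. The *Naip* genes are near-identical paralogs, so how their reads were divided is uncertain. *Aim2*, a sensor of cytosolic DNA, had 0.71 in WO vs. MO (limma FDR 0.000293) and 0.91 in MY vs. MO. *Nlrp3*, the best known sensor, was 0.28 in WO, 0.29 in MY and 0.73 in MO mice on average. Its log2 fold change of 0.45 (limma FDR 0.000133) in WO vs. MO and 0.44 in MY vs. MO passed the FDR but not the minimum fold.

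Of 4 genes for interleukin-1 products and their release, 2 were up-regulated in WO vs. MO and 1 in MY vs. MO. *Il1a* had a log2 fold change of 0.94 (limma FDR 0.000393) and 0.91 (limma FDR 0.00462), and *Il1b* had 0.64 (limma FDR 0.00121) in WO vs. MO and 0.52 (limma FDR 0.0222) in MY vs. MO, the latter under the minimum fold. Their mean levels in MO mice were 1.45 and 0.77. *Il18*, the other cytokine matured by caspase-1 and named here after its value was seen, was at 4.95 in WO and 4.80 in MO mice, with a log2 fold change of -0.14 (limma FDR 0.28). *Ninj1*, whose product ruptures the plasma membrane late in lytic death, was at 4.44 in WO and 4.70 in MO mice and did not reach the minimum fold (0.26; limma FDR 0.0135).

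Of 11 listed symbols for other gasdermins, 4 were in the table and 0 of 4 were differentially expressed in WO vs. MO or MY vs. MO. *Dfna5*, the gene of gasdermin E, was 3.29 in WO and 3.18 in MO mice (log2 fold change -0.11; limma FDR 0.0459). Of 6 other caspase genes in the table, 1 was up-regulated in both comparisons. *Casp12*, an endoplasmic reticulum caspase of the inflammatory family, had a log2 fold change of 1.14 in WO vs. MO (limma FDR 8.69e-05) and 1.06 in MY vs. MO.

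Of 25 genes of the death receptor and RIPK1 complex in the table, 3 were up-regulated and 0 down-regulated in both WO vs. MO and MY vs. MO. They were *Tnfrsf1a*, the TNF receptor that assembles RIPK1 (log2 fold change 1.35 and 1.25), *Fas*, a receptor that recruits FADD (1.04 and 1.23), and *Tnfaip3*, which encodes the ubiquitin-editing enzyme A20 (0.61 and 0.62). The median of the 25 genes was 0.02 in WO vs. MO and 0.09 in MY vs. MO. *Cflar*, whose product binds caspase-8 and limits its activity, had 0.33 in WO vs. MO (limma FDR 0.00346) and did not reach the minimum fold. Of 10 other genes that feed into RIPK3 or hold it back, 0 were differentially expressed in WO vs. MO and 1 was up-regulated in MY vs. MO. That gene was *Tlr4*, the lipopolysaccharide receptor (0.65, limma FDR 0.00116; 0.50 in WO vs. MO). *Ticam1*, the adaptor that links Toll-like receptors to RIPK3, had 0.34 in WO vs. MO (limma FDR 0.00243). Of 12 genes of membrane repair, which removes damaged membrane with the ESCRT machinery, 0 were differentially expressed in either comparison, and the median was 0.02 in WO vs. MO. *Chmp4b*, which forms the ESCRT filaments, was 7.19 in WO and 7.23 in MO mice.

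In WY vs. WO and in WY vs. MY, 0 genes of these pathway lists were differentially expressed by limma, against 0.253% and 0.00550% of all genes. In the test of the age effect between genotypes, 4.65% of all genes passed both thresholds with larger increases in mutant mice. So did 3 of 12 sensors, 1 of 4 interleukin-1 genes, 2 of 6 other caspases, 3 of 25 genes of the RIPK1 complex and 2 of 10 genes around RIPK3. *Aim2* had the largest of these differences among the sensors, 1.39 (limma FDR 7.12e-05), and it averaged 1.58 in WY mice, 0.90 in MY, 1.11 in WO and 1.82 in MO mice.

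In whole spinal cord, more cells of a type and more RNA per cell cannot be told apart. Of 9 microglial marker genes, 5 were up-regulated in WO vs. MO and 6 in MY vs. MO. Their summed FPKM was 169, 170 and 168 in WY1 to WY3, 173, 182 and 175 in MY1 to MY3, 179, 189, 197, 153.4 and 147 in WO1 to WO5, and 353, 449, 475, 360 and 352 in MO1 to MO5. MO3 and MO2 were highest, and no other group overlapped MO. *P2ry12*, *Sall1*, *Siglech* and *Tmem119* were not differentially expressed in WO vs. MO, with log2 fold changes of 0.10, -0.01, 0.26 and 0.49. Of these, *Siglech* (limma FDR 0.0479) and *Tmem119* (limma FDR 0.00298) passed the FDR but not the minimum fold.

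All 6 markers of leukocytes and myeloid cells were up-regulated in both comparisons, and *Cd68* (3.22 in WO vs. MO) and *Tyrobp* (2.69) had the largest log2 fold changes. The summed FPKM of the list was 67.3, 54.1 and 62.8 in WY1 to WY3, 49.3, 62.1 and 58.9 in MY1 to MY3, 66.7, 78.0, 83.9, 43.5 and 38.7 in WO1 to WO5, and 265, 491, 615, 285 and 315 in MO1 to MO5. *Tyrobp* was the most abundant gene, with a mean FPKM of 117.7. As in *Gsdmd* and *Pycard*, WO4 and WO5 had the lowest sums of the WO mice. Of 6 astrocyte markers, 3 were up-regulated in WO vs. MO and 2 in MY vs. MO, and *Gfap*, the most abundant, had a log2 fold change of 1.60 in WO vs. MO. Their summed FPKM was 1748, 1694 and 1630 in WY1 to WY3, 1543, 1565 and 1512 in MY1 to MY3, 1222, 1244, 1329, 1383 and 1149 in WO1 to WO5, and 2705, 3490, 3134, 2587 and 2775 in MO1 to MO5. The part of microglial, myeloid and astrocyte content in the results of the 10 genes was not tested.

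Of the other lists of blood and border cells, 0 genes were differentially expressed in WO vs. MO or MY vs. MO. *Ccr2* (mean 0.10 in MO mice) and *Ly6c2* (0.24), listed for monocytes, were near 0 in MO mice. So were *Cd3e* (0.07) and *Ncr1* (0.05) of T and NK cells and *Cd79a* (0.13) of B cells. *Lck* of T and NK cells averaged 0.39 in WO and 0.65 in MO mice, and *Cd79b* of B cells 0.16 and 0.60. *Lck* (log2 fold change 0.26; limma FDR 0.00851), *Cd3g* (0.21; limma FDR 0.0127), *Cd8a* (0.09; limma FDR 0.0412), *Cd79b* (0.45; limma FDR 0.000373), *Vcan* (0.39; limma FDR 0.00396), *Mrc1* (0.22; limma FDR 0.00343) and *Lyve1* (0.24; limma FDR 0.0109) passed the FDR but not the minimum fold in WO vs. MO. For the 8 T and NK cell markers, led by *Lck*, summed FPKM was between 1.04 and 1.44 in MO mice, between 0.438 and 0.702 in WO mice and at most 0.786 in MY and WY mice, so all MO mice lay above all others. For the 6 monocyte markers, led by *Vcan*, it was between 8.12 and 10.5 in MO mice and between 6.09 and 7.47 in WO mice, and MY and WY mice overlapped MO mice. For the 2 B cell markers, led by *Cd79b*, it was between 0.44 and 0.883 in MO mice and between 0.101 and 0.554 in WO mice. For the 6 neutrophil markers, led by *S100a8*, it was between 0.902 and 8.46 in MO mice and between 3.52 and 37.1 in WO mice, and *Mpo* was at 0.07 in both. For the 5 markers of border-associated macrophages, led by *Pf4*, it was between 2.39 and 3.51 in MO mice and between 1.19 and 2.45 in WO mice.

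Of 6 motor neuron markers, *Chat* was down-regulated in WO vs. MO (log2 fold change -0.67; limma FDR 3.13e-05), and 0 were differentially expressed in MY vs. MO. *Slc18a3* (-0.51; limma FDR 0.00123), *Mnx1* (-0.50; limma FDR 0.000847) and *Slc5a7* (-0.49; limma FDR 0.00205) passed the FDR but not the minimum fold in WO vs. MO. The summed FPKM of the list, in which *Prph* was the most abundant, was 104, 108, 87.1, 113.996 and 98.1 in MO1 to MO5 and between 121 and 149 in WO mice. It was between 116 and 129 in MY mice and between 105 and 126 in WY mice, which overlapped MO mice. MO3, with the lowest sum, had the highest value of the MO mice in 7 of the 10 genes. MO5, with the next lowest sum, was highest in 0 genes and lowest in 4, and MO4, with the highest sum, was highest in 2. Of 6 neuronal markers, *Nefm* was down-regulated in both comparisons (-0.70 in WO vs. MO), and among 5 oligodendrocyte markers *Mog* was down-regulated in MY vs. MO (-0.93; limma FDR 0.0118) and not in WO vs. MO (-0.30; limma FDR 0.239). The sum of the oligodendrocyte list spread from 4489 to 23150 within WO mice. *Mbp* made up 0.89% of it in WO4 and between 82.4% and 87.0% in the other 3 mice of batch 2 (WO5, MO4 and MO5), whose sums were 20751 to 23150. In the 12 mice of batch 1 the share was between 58.6% and 69.7% and the sum between 6561 and 15388, so these sums are not comparable between batches. No marker of endothelium (5), meningeal fibroblasts (4), Schwann cells (4) or red blood cells (4) was differentially expressed in either comparison. In WO vs. MO, however, 4 of 5 endothelial markers passed the FDR without the minimum fold, with lower levels in MO mice: *Cdh5* (-0.57; limma FDR 0.00122), *Pecam1* (-0.50; limma FDR 0.000615), *Tek* (-0.47; limma FDR 0.00818) and *Flt1* (-0.47; limma FDR 0.0144). Their list, led by *Cldn5*, had a summed FPKM of 24.6 to 34.3 in MO mice, 31.7 to 49.6 in WO mice, 32.0 to 32.3 in MY mice and 38.8 to 45.1 in WY mice. *Drp2* of Schwann cells also passed the FDR alone (0.35; limma FDR 0.00107). The part of these cell types in the results was not tested.

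**Figure D3:**
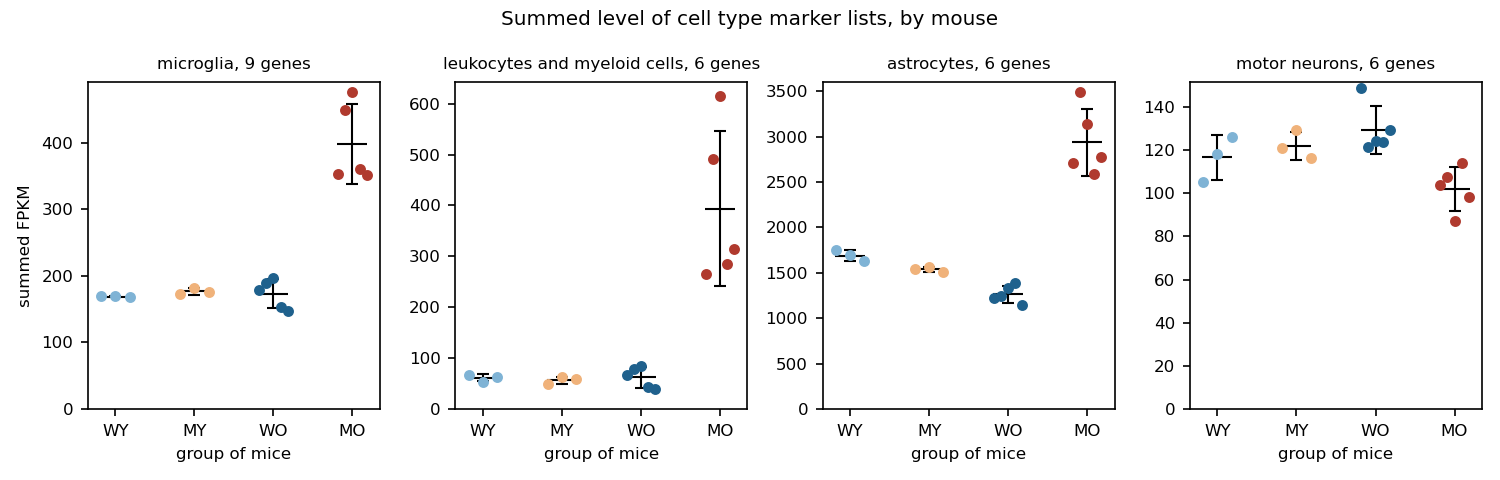
Each point is the summed FPKM of a marker list in 1 mouse, by group, and bars show the mean and SD. Microglial sums lie between 352 and 475 in MO mice and at or below 197 in all other mice, and every motor neuron sum is lower in MO mice than in WO mice.

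For each of the 6 up-regulated genes, the genes with the most similar pattern over the 16 mice were found by the root-mean-square difference of centred log2 values, among genes with a mean of at least 1. *Pycard* was nearest to *Hcls1* (difference 0.11), *Rasal3* (0.12) and *Fcgr1* (0.12), and *Gsdmd* to *Slco2b1* (0.09), *Kcnk6* (0.10) and *Uba7* (0.12). *Casp1* was nearest to *Slc7a7* (0.13), *Hk2* (0.14) and *Mylk* (0.15), and *Casp4* to *Palld* (0.10), *Cnn3* (0.12) and *Dock8* (0.12). *Casp8* was nearest to *Fam111a* (0.08), *Glb1* (0.09) and *Nfe2l2* (0.09), and *Zbp1* to *Slc16a3* (0.11), *Nes* (0.11) and *Gbp2* (0.13). *Casp4* and *Zbp1*, with means below 1, were not themselves among the genes searched. No gene was named for more than 1 of the 6.

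The 10 genes lie on 8 chromosomes of the mouse genome (GRCm38, GENCODE M21), and all are protein-coding. *Casp1* (chr9:5298517-5307265, plus strand) and *Casp4* (chr9:5308828-5336783, plus strand) are neighbours, with 1562 bases between them. The only other protein-coding gene within 200 kb of either is *Casp12* (chr9:5345430-5373032, plus strand), and so all 3 genes of this cluster were up-regulated in WO vs. MO and MY vs. MO. The window was chosen after the values were seen. The genes are related in sequence, and how reads shared between them were assigned is not given in the sources used here. *Pycard* (chr7:127989708-127993867) and *Fadd* (chr7:144577318-144582463) are on the minus strand of chromosome 7, far apart. *Gsdmd* is at chr15:75862327-75867408 (plus strand), *Casp8* at chr1:58795374-58847503 (plus strand) and *Zbp1* at chr2:173206612-173218923 (minus strand). *Ripk1* is at chr13:34002363-34037147 (plus strand), *Ripk3* at chr14:55784995-55788865 (minus strand) and *Mlkl* at chr8:111311797-111338177 (minus strand). An antisense gene, *Faddos*, overlaps 4195 bases of *Fadd*, *Gm45205* overlaps 599 bases of *Pycard* on the opposite strand, and *Serpinb6a* overlaps 432 bases of *Ripk1* on the opposite strand. The pseudogenes *Gm17083* (1366 bases of *Ripk1*) and *Gm45712* (394 bases of *Mlkl*) are also on the opposite strand. On the same strand, *Gm37760* overlaps 3841 bases of *Casp8* and the pseudogene *Gm17084* overlaps 511 bases of *Ripk1*, which a stranded count would not separate. The library kit keeps strand, but whether the strand was used in counting is not given in the sources used here, so reads in all of these stretches are uncertain.

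**Figure D4:**
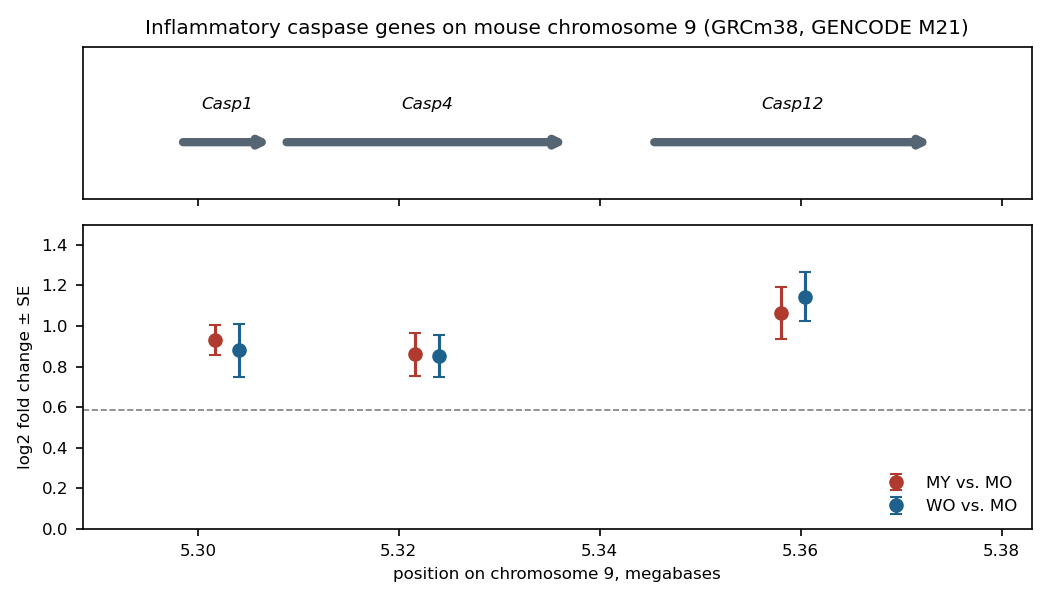
The upper panel shows *Casp1*, *Casp4* and *Casp12* to scale on chromosome 9 (GRCm38), with arrows in the direction of transcription, and the lower panel shows their log2 fold changes with SE in MY vs. MO and WO vs. MO, with the minimum fold as a dashed line. The fold changes of *Casp12* (1.06 and 1.14) are above those of *Casp1* (0.93 and 0.88) and *Casp4* (0.86 and 0.85).

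Promoter sequences from RefSeq (GRCm38.p6) were found for 8 of the 10 genes, in 10 windows, and *Gsdmd* and *Zbp1* had no entry. The 250 bases before each transcription start were searched on both strands for 5 motifs, with N for any base. GAAANNGAA, the core of the interferon-stimulated response element, was in 0 of 8 genes and in 8.18% of all 27025 genes with a window. TTCNNNGAA, the gamma-activated site, was in 1 of 8 (*Ripk1*, in 1 of its windows) and in 8.13% of all genes, and GGANTTTCC, a κB-like motif, was in 0 of 8 and 1.25% of all genes. GAGGAAGT, a PU.1-like motif, was in 1 of 8 (*Pycard*) and in 2.79% of all genes, and TGANTCA, the AP-1 motif, was in 0 of 8 and 7.82% of all genes. These matches are descriptions of the letters and not of binding. Other forms of each site were not searched for, so a count of 0 does not mean that a site is absent. The window of *Pycard*, the gene with the largest fold change on the log2(1 + FPKM) scale, is shown with the PU.1-like match on the opposite strand in capitals (bases 44 to 37 before the start), and the window of its partner *Casp1*, which held none of the motifs, is shown beside it. Their positions are chr7:127993868-127994117 (minus strand) and chr9:5298267-5298516 (plus strand).
Pycard: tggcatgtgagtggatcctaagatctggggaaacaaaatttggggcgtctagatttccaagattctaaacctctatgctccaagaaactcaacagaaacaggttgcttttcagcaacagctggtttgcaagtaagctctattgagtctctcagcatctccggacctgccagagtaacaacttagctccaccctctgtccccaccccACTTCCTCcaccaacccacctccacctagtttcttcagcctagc
Casp1: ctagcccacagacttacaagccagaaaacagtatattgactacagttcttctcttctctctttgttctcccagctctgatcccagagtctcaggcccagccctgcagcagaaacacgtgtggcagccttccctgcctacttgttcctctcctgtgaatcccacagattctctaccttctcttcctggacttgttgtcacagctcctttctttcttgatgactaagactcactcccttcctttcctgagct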

How the data were processed

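RNA-Seq of spinal cord from 16 mice was taken as 1 table of 18167 genes. Its log2(1 + FPKM) values were made and deposited by the authors, who used Trimmomatic for trimming, TopHat for alignment (genome mm10) and Cufflinks for FPKM, left out genes with no FPKM in many mice and adjusted for batch with ComBat. Versions, ComBat covariates and the use of strand in counting are not given in the sources used here. The adjustment left 915 values below 0, which were kept, and FPKM was recovered as 2 to the power of the value minus 1, set to 0 where negative. The authors list the total of cleaned fragments of each library, but the deposited table holds no read counts per gene. The precision of its values for genes near 0 therefore cannot be read from it.

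The 10 genes, the pathway lists and the marker lists were fixed before the files were opened, but with earlier results of these data known. Pairs of groups were compared with limma 3.58.1 in R 4.3.3 (second group minus first), with FDRs by Benjamini and Hochberg over 18167 genes. The thresholds were an FDR of 0.05 or less together with a change of 1.5-fold or more. From each list up to 4 differentially expressed genes with the largest absolute log2 fold change in WO vs. MO were named, and the best known gene that was not differentially expressed. Alternatives were 1 fit of all groups, batch as a term, single batches, a pseudocount of 0.1, a filter on mean level, quantile normalization, other variance settings, a minimum-fold test, blocking by replicate number, leaving out the oldest WO mice and leaving out each mouse. The code was tested on simulated data. Positions are from GENCODE M21 (GRCm38) and promoters from RefSeq (GRCm38.p6), read with Python 3.11.15, pandas 2.3.3 and NumPy 2.4.6, and figures were drawn with matplotlib 3.10.9. Protein sequences were not available, so no protein sites were examined.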

Additional observations from a re-analysis of the deposited data

Results flagged for a closer look

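In 1 of 20 tests for a mouse far from the others of its group of 5, *Zbp1* in MO1 stood apart, at 0.78 against 1.202 to 1.33 in MO2 to MO5. The gap was 0.767 of the range of the group. Chance alone gives about 1 such mouse in 20 groups, and the cause was not tested.

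The effect of age differed between genotypes for 7 of the 10 genes by the interaction test of limma at an FDR of 0.05 with no minimum fold, where 10.5% of all genes had a larger increase in mutant mice. The differences, mutant minus wild-type, were 1.38 for *Pycard*, 1.15 for *Zbp1*, 1.02 for *Casp4*, 0.81 for *Casp1*, 0.73 for *Gsdmd*, 0.67 for *Casp8* and 0.49 for *Ripk1*. Genotype is tied to disease stage in the old mice and to the line in all mice, and these cannot be told apart here.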

How the results depend on the processing

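Over 27 alternative settings, 900 log2 fold changes of the 10 genes were computed: 865 kept their direction and side of the thresholds, 3 lost and 5 gained a pass, and 27 changed sign. A pass here meant the FDR and the minimum fold together. The 865 therefore include values that passed under neither setting, and losses of the FDR alone, as in *Ripk1* and *Ripk3*, are not counted. Lost were *Gsdmd* in WO vs. MO without both oldest WO mice (0.57) and *Casp8* under quantile normalization in MY vs. MO (0.51) and in the interaction (0.56). Gained with a pseudocount of 0.1 were *Ripk3* in MY vs. MO (1.01) and WO vs. MO (0.74) and *Ripk1* in WO vs. MO (0.61) and the interaction (0.65), and gained within batch 1 was *Ripk1* in the interaction (0.61). None of the 27 values that changed sign had an FDR of at most 0.05 before or after. They were *Fadd* in MY vs. MO under quantile normalization (-0.039), and in WY vs. WO *Casp8* (0.031) and *Pycard* (0.089) with a joint model that holds batch, and *Casp8* (0.0067) and *Pycard* (0.12) in batch 1, without both oldest WO mice and with the replicate block. The other 18 came from leaving out 1 mouse, with ranges in WY vs. WO of -0.078 to 0.0083 for *Casp8*, -0.094 to 0.032 for *Pycard* and -0.12 to 0.020 for *Fadd*. In WY vs. MY the ranges were -0.050 to 0.20 for *Casp1*, -0.12 to 0.011 for *Pycard*, -0.083 to 0.052 for *Gsdmd*, -0.098 to 0.034 for *Ripk1*, -0.040 to 0.062 for *Ripk3*, -0.11 to 0.042 for *Mlkl* and -0.028 to 0.11 for *Fadd*. The filter on mean level left out *Casp4*, *Zbp1*, *Mlkl* and *Ripk3*, and 4 genes then passed. Over all genes, the pseudocount of 0.1 gave 1483 differentially expressed genes in place of 890 in MY vs. MO, 1529 in place of 836 in WO vs. MO and 1548 in place of 1020 in the interaction; the cause was not tested. The 46 genes of WY vs. WO became 35 with all mice fitted jointly and 88 once batch was added to that model, 73 in batch 1 and without both oldest WO mice, which are the same mice, and 3 with a minimum-fold test; leaving out 1 mouse gave 7 to 64. The 1 gene of WY vs. MY became 4 when all mice were fitted jointly, 3 once batch was added to that model, and 2 with the filter or other variance settings, and leaving out 1 mouse gave 1 to 5. Blocking by replicate number gave 1108 genes (6 of the 10) in MY vs. MO, 840 (6 of the 10) in WO vs. MO, 63 (0 of the 10) in WY vs. WO and 1 (0 of the 10) in WY vs. MY. In MY vs. MO each MY mouse correlated best with the MO mouse of its own number, as did WO2 in WO vs. MO and WY1 and WY3 in WY vs. WO, but in no comparison was every correlation over 0.1 (0.177, 0.0853 and 0.151 in MY vs. MO; 0.0402, 0.0913, -0.207, -0.0785 and 0.0293 in WO vs. MO; 0.377, -0.129 and 0.189 in WY vs. WO; -0.099, -0.2 and -0.0194 in WY vs. MY), so the numbers were not used to pair mice. The table gives no read counts per gene, which limits what can be said from it of genes near 0, such as *Ripk3* and *Mlkl*.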
